A study of Mus musculus with 4 samples.

Results

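The nuclear receptors described here are the 47 mouse genes of the nuclear receptor superfamily whose names are carried by probes of the array, out of 35080 gene names and named features on it. They were chosen by gene name, without regard to signal, and are represented by 75 probes on 113 spots. Of the 47 receptors, 39 were measured, meaning that in 1 group or both a probe was well above background on each array. The RNA came from primary hepatocytes of bl6 mice, that is, liver parenchymal cells taken directly from the animal and cultured. After culture in medium with 10% serum, both groups were kept overnight in 0.5% serum with 5 μM simvastatin, an inhibitor of the rate-limiting enzyme of the mevalonate pathway, and 100 μM mevalonic acid, the product of that enzyme. The control group of 2 samples received DMSO, the solvent, and the treated group of 2 received 1 μM GW3965, a compound that activates the liver X receptors (LXRs). Samples carry the letters a and b within each group, and the labels do not say whether these stand for separate animals or cultures, so p-values measure only the spread between these samples. Each sample was hybridised to its own single-colour Agilent array.

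Nuclear receptors are transcription factors, most of which bind a small fat-soluble ligand such as a steroid, thyroid hormone, retinoid, oxysterol, bile acid or fatty acid. In the liver they control lipid, bile acid, glucose and drug metabolism. LXRα (Nr1h3) and LXRβ (Nr1h2) sense oxysterols and act as heterodimers with a retinoid X receptor (RXR) on paired copies of a hexamer spaced 4 bases apart. Their classical targets include the cholesterol transporters Abca1 and Abcg1 and the lipogenic factor Srebf1. Many other members share RXR as their partner, and they share coactivators and corepressors too.

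The probes of both LXRs are shown because the comparison rests on them. The first 30 of their 60 bases are printed, with positions of the whole probe on mm9 (NCBI37) as the file headers give them.
Nr1h2 probe, chr7:51805013-51805072: ggccccccacagttgggagaccacaggccc
Nr1h3 probe, chr2:91024250-91024309: aacgttgtataccatctgaagaccttgttg
Nr1h3 other probe, chr2:91024345-91024404: tcctgggagctgggtgaaggagagagcctt
Both Nr1h3 probes lie within a short stretch of chromosome 2, and their differences between groups were 0.00 ± 0.47 and 0.00 ± 0.51 on the log2 scale (SE, n = 2 arrays in each group).

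Sequence upstream of the receptor genes was searched for the LXR type of motif, using RefSeq's windows on GRCm38.p6 from 250 bases before to 50 bases after each listed start. Windows were found for 43 of the 47 receptors, 64 windows in all, and not for Nr5a1, Thra, Hnf4g and Nr3c1. A relaxed form of the paired hexamer, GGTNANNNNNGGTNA on either strand, was in 236 of 32851 windows (0.718%). It was in 0 of the 64 receptor windows. The exact form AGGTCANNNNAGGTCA, a stricter case of the same motif that also holds the single hexamer below, was in 5 of all windows (0.0152%) and in 0 of the receptor windows. Of the target genes Abca1, Abcg1 and Srebf1, the relaxed form was found upstream of Abca1 and Srebf1. These matches are shown with the matched letters in capitals. They read on the other strand, so the sense of the motif runs from right to left.
Abca1, chr4:53159940-53159969, gene on the minus strand: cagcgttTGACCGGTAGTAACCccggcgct
Srebf1, chr11:60210631-60210660, gene on the minus strand: acgacagTGACCGCCAGTAACCccagcgcg
A match describes letters only, and its absence says only that these letters are not in the window.

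A single hexamer AGGTCA on either strand, the unit from which most receptor sites are built, was in 12 of the 64 receptor windows (18.8%) against 5340 of all windows (16.3%). The genes with it were Nr0b1, Nr1d2, Nr1h4, Nr5a2, Nr6a1, Pparg, Rara, Rarg, Rxra, Rxrg and Thrb. Rxra held it on both strands, and the 250 bases before its listed start are shown beside those of both LXR genes, which held none. The hexamer is in capitals, as TGACCT where it lies on the other strand.
Rxra, chr2:27709042-27709291, plus strand: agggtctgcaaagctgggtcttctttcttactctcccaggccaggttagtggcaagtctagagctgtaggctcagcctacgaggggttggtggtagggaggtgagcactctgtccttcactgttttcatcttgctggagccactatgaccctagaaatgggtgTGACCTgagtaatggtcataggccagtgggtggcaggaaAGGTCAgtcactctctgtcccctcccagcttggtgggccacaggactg
Nr1h3, chr2:91195117-91195366, minus strand: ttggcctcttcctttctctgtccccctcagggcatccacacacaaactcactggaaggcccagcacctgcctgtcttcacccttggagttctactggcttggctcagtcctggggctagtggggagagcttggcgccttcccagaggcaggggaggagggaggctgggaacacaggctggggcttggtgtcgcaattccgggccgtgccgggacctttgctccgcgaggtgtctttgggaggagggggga
Nr1h2, chr7:44553966-44554215, minus strand: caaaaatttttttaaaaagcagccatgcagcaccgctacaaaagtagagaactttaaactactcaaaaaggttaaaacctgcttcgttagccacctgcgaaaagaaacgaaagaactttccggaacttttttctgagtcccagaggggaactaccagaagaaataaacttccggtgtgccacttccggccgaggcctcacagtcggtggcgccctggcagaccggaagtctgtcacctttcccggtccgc

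Across the series, between 62.5% and 69.1% of probes were well above background on an array, and 0 spots were saturated. The LXR targets Abca1, Abcg1 and Srebf1 served as a check on the agonist. Abca1 read 1.46 and 0.55 with DMSO and 3.31 and 3.85 with GW3965, where levels here and below are log2 values after subtracting the array's 75th percentile, in the order replicate a, replicate b. The difference was 2.58 ± 0.39 (SE, n = 2 arrays in each group), and the groups did not overlap. For Abcg1 the difference was 1.98 ± 0.29 and for Srebf1 1.24 ± 0.20, again with both treated arrays above both control arrays. In limma with Benjamini-Hochberg adjustment, 0 of 24637 genes passed 0.05 (0% called, lowest adjusted p = 0.940), these targets included, while 203 had an unadjusted p under 0.05 (0.824%).

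Of the 47 receptors, 38 had a probe well above background on all 4 arrays. Not every probe of these receptors was. The other probes of Esr1, which has 4, and of Rora were well above background on 0 arrays. The other Esrrb probe was so on 2 arrays and the other Nr1i3 probe on 3. Vdr, the vitamin D receptor, was well above background on 3 arrays, with DMSO replicate a as the exception. The 8 others were well above background on 0 arrays. They were Pgr, the progesterone receptor (3 probes), Esrrg, an estrogen-related receptor (2 probes), Nr1h5, a second FXR-type receptor, Nr0b1 (DAX1), known from the adrenal gland and gonads, Nr2e1 (TLX), known from neural stem cells, Nr2e3, a photoreceptor factor, Nr4a3, the third of the NR4A family, and Hnf4g, a relative of Hnf4a. By role, measured genes made up 8 of 9 lipid and xenobiotic sensors, 3 of 3 RXRs, 10 of 11 hormone and vitamin receptors, 4 of 4 REV-ERB and ROR receptors, 1 of 2 receptors without a DNA-binding domain and 13 of 18 other orphan receptors. Levels of different genes come from different probes and were not ranked.

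No receptor passed the test. limma called 0 of the 39 measured receptors (0% of all genes called), and 0 had an unadjusted p under 0.05, against 0.824% of all genes. The lowest unadjusted p was 0.217, for Ppard, with an adjusted p of 1.00 over all genes. Mean levels were higher with GW3965 for 20 receptors and lower for 19, and the median difference was 0.00 beside -0.01 over all genes. Differences ran from -0.31 for Nr1h4 (1.24-fold lower) to 0.28 for Nr3c2 (1.22-fold higher). Both GW3965 arrays lay on one side of both DMSO arrays for 4 of the 39 (10.3%), below the 16.0% of all genes. Those above were Ppard, Rxra and Nr2c1, 3 receptors against 9.41% of all genes, and the receptor below was Nr2c2, 1 against 6.55% of all genes. With 1 array left out, so that 1 array stands against 2 and separation is easier by construction, the count was 20 (51.3%, all genes 56.7%) on leaving out DMSO replicate a and 27 (69.2%, all genes 56.4%) on leaving out DMSO replicate b. Leaving out GW3965 replicate a gave 25 (64.1%, all genes 61.8%), and leaving out GW3965 replicate b gave 14 (35.9%, all genes 57%).

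**Figure D1:**
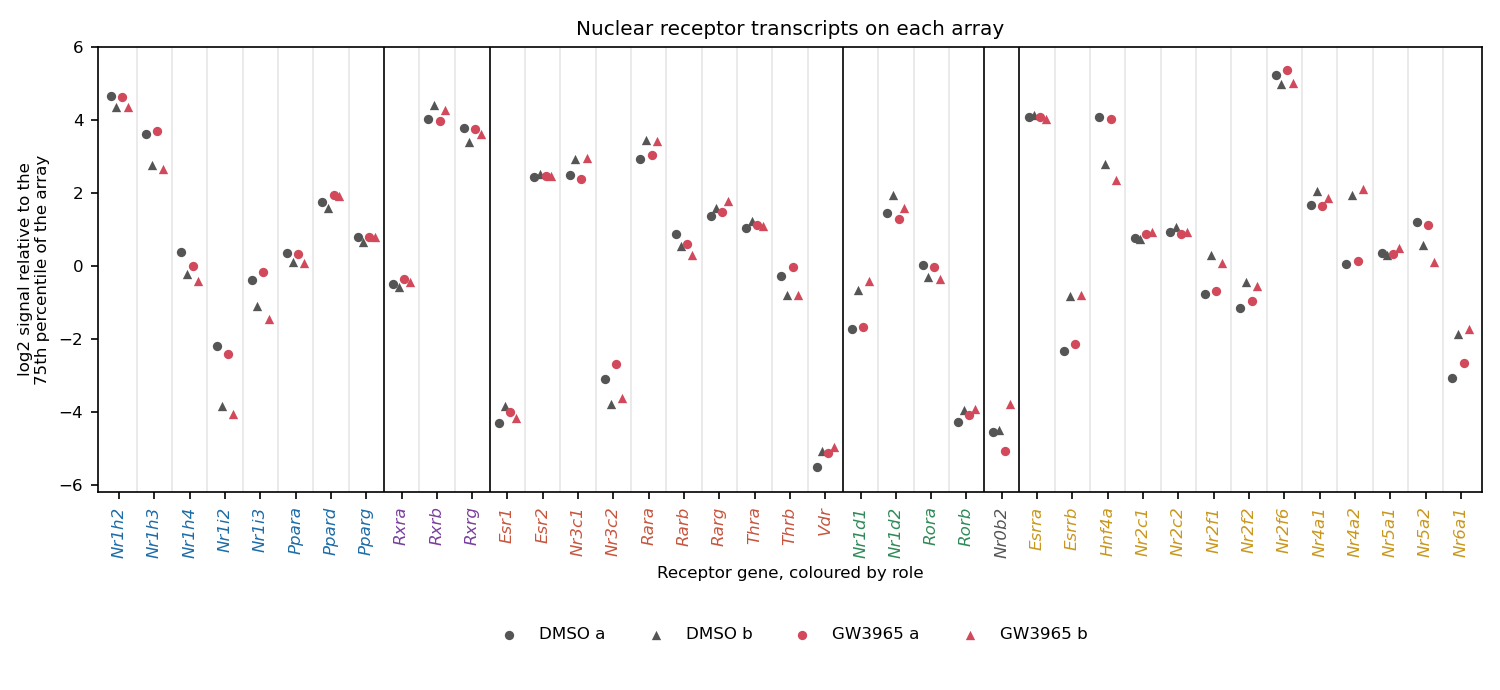
Level of the 39 measured receptors on each of the 4 arrays, on the log2 scale after subtracting the array's 75th percentile, with circles for replicate a, triangles for replicate b, grey for DMSO and red for GW3965. Gene names are coloured by role, with lines between the roles. For Nr1i2, Hnf4a, Esrrb and Nr4a2 the symbols separate by shape rather than by colour. Heights of different genes are from different probes and are not comparable.

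For both LXRs, the receptors that bind GW3965, the means of the groups were nearly equal. Nr1h2 (LXRβ) read 4.66 and 4.37 with DMSO and 4.63 and 4.36 with GW3965, a difference of -0.02 ± 0.22. Its 4 arrays fell into the same order within each group, with replicate a higher. Nr1h3 (LXRα) read 3.60 and 2.76 with DMSO and 3.69 and 2.67 with GW3965, a difference of 0.00 ± 0.47 with a 95% interval from -1.22 to 1.22. The interval for Nr1h2 was narrower, from -0.60 to 0.56, so a 2-fold difference lay outside it for Nr1h2 and inside it for Nr1h3. In both groups the a array of Nr1h3 exceeded the b array, by 0.84 with DMSO and by 1.03 with GW3965. In bulk RNA such as this, fewer cells of a type and less RNA per cell cannot be told apart.

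On the probes that stood for them, the RXRs, heterodimer partners of the LXRs, differed little in mean. Rxra (RXRα) read -0.51 and -0.58 with DMSO and -0.36 and -0.45 with GW3965, a difference of 0.14 ± 0.18 without overlap. A second Rxra probe gave -0.02 ± 0.25 and its groups overlapped. Rxrb (RXRβ) read 4.03 and 4.42 with DMSO and 3.97 and 4.27 with GW3965, a difference of -0.11 ± 0.24 in overlapping groups. Rxrg (RXRγ) differed by 0.09 ± 0.22, and a second, far dimmer Rxrg probe by -0.41 ± 0.51.

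Among the lipid and xenobiotic sensors, the largest differences were those of the bile acid receptor and PPARδ. Nr1h4 (FXR), the bile acid receptor, read 0.38 and -0.22 with DMSO and -0.02 and -0.43 with GW3965, a difference of -0.31 ± 0.30. Its groups overlapped, since GW3965 replicate a lay above DMSO replicate b. Ppard (PPARδ), a fatty acid receptor present in most tissues, read 1.75 and 1.58 with DMSO and 1.95 and 1.91 with GW3965, a difference of 0.27 ± 0.19 with a 95% interval from -0.22 to 0.76. Both treated arrays lay above both controls, and a second Ppard probe gave 0.32 ± 0.22. Ppara (PPARα), which drives fatty acid oxidation in fasting, differed by -0.01 ± 0.21, while its 2 other kept probes gave -0.26 ± 0.29 and -0.18 ± 0.24. Pparg (PPARγ), the adipocyte receptor, differed by 0.06 ± 0.18.

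The xenobiotic receptors had wide intervals. Nr1i2 (PXR), which senses drugs and induces cytochrome P450 genes, differed by -0.22 ± 0.78, with an interval from -2.27 to 1.82. Nr1i3 (CAR), its close relative, differed by -0.07 ± 0.52. Nr1i2 stood 1.65 higher on the a array than on the b array in either group.

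Hormone and vitamin receptors included Nr3c2 (the mineralocorticoid receptor), which read -3.09 and -3.79 with DMSO and -2.70 and -3.62 with GW3965, a difference of 0.28 ± 0.42 in overlapping groups. Rarb (RARβ), a retinoic acid receptor, read 0.87 and 0.56 with DMSO and 0.59 and 0.30 with GW3965, a difference of -0.27 ± 0.23. The treated a array exceeded the control b array slightly, so the groups overlapped. Vdr read -5.51 and -5.07 with DMSO and -5.13 and -4.98 with GW3965, a difference of 0.23 ± 0.24, with the first of these values not well above background. Nr3c1 (the glucocorticoid receptor), the receptor for cortisol-type steroids, differed by -0.06 ± 0.29. The thyroid hormone receptors Thra and Thrb differed by -0.04 ± 0.19 and 0.13 ± 0.35, and the retinoic acid receptors Rara and Rarg by 0.05 ± 0.28 and 0.15 ± 0.21. For the estrogen receptors Esr1 and Esr2 the differences were -0.01 ± 0.24 and -0.02 ± 0.18. The other probes of Esr1 were well above background on 0 arrays.

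The REV-ERBs are heme-binding repressors of the circadian clock. Nr1d1 (REV-ERBα) read -1.74 and -0.68 with DMSO and -1.69 and -0.42 with GW3965, a difference of 0.15 ± 0.57. On a probe placed on chromosome 19, Nr1d2 (REV-ERBβ) read 1.45 and 1.94 with DMSO and 1.28 and 1.59 with GW3965. The difference was -0.26 ± 0.26. For both REV-ERBs the b array was the higher one in both groups. The RORs, activators that share REV-ERB sites, differed by -0.05 ± 0.24 for Rora and 0.10 ± 0.22 for Rorb. Of 17 core clock genes outside the superfamily, 17 were measured, 0 passed the test, and 1 (5.88%, all genes 16.0%) had groups that did not overlap. That gene was Dbp, a clock-controlled activator, which read 1.98 and 2.23 with DMSO and 1.81 and 1.54 with GW3965, a difference of -0.43 ± 0.22. Hlf, Bhlhe40 and Csnk1d, next by unadjusted p, differed by 0.31 ± 0.38, 0.18 ± 0.24 and -0.12 ± 0.19.

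The probe that stood for Nr1d2 is placed by the files on chromosome 19 and the other Nr1d2 probe on chromosome 14. Both are shown because they carry the same gene name at different positions.
Nr1d2 probe, chr19:40271435-40271494: ctgtgaggggagctcagatagatgtatctt
Nr1d2 other probe, chr14:19037253-19037312: ccagaactgttagtattgcttgtgatgctt
The probe on chromosome 14 read 0.33 and 0.83 with DMSO and -0.06 and 0.87 with GW3965, a difference of -0.18 ± 0.39. The probe on chromosome 14 is annotated to a RefSeq transcript, and that on chromosome 19 is not. Whether the probe on chromosome 19 measures Nr1d2 at all was not tested. The values given for Nr1d2 elsewhere, and every count or list that includes it, rest on that probe.

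Nr0b2 (SHP), which lacks a DNA-binding domain and represses other receptors, differed by 0.10 ± 0.46. Its control arrays were close together, at -4.55 and -4.51, and its treated arrays were apart, at -5.08 and -3.78.

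Of the other orphan receptors, Hnf4a, a central regulator of hepatocyte identity, read 4.08 and 2.79 with DMSO and 4.03 and 2.35 with GW3965, a difference of -0.25 ± 0.71. Nr5a2 (LRH-1), a regulator of bile acid synthesis, read 1.20 and 0.57 with DMSO and 1.11 and 0.12 with GW3965, a difference of -0.27 ± 0.42. Both were higher on the a array than on the b array of each group. Nr6a1 (GCNF), known from germ cells and the early embryo, had the opposite order and read -3.07 and -1.88 with DMSO and -2.67 and -1.73 with GW3965, a difference of 0.27 ± 0.52.

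The testicular receptors had close replicates. Nr2c1 (TR2) read 0.77 and 0.74 with DMSO and 0.88 and 0.92 with GW3965, a difference of 0.14 ± 0.18, and a second probe gave -0.10 ± 0.20. Nr2c2 (TR4) read 0.94 and 1.05 with DMSO and 0.88 and 0.92 with GW3965, a difference of -0.10 ± 0.18. A second Nr2c2 probe gave -0.05 ± 0.19. Neither group of arrays overlapped with the other for the representative probes of Nr2c1 and Nr2c2. Neither difference exceeded limma's SE, which draws on the spread of all genes as well as the gene's own. The SDs of the arrays themselves, with DMSO and with GW3965, were 0.02 and 0.03 for Nr2c1 and 0.08 and 0.03 for Nr2c2. On the second probe of each receptor the groups overlapped. The COUP transcription factors Nr2f1, Nr2f2 and Nr2f6 differed by -0.05 ± 0.47, 0.04 ± 0.32 and 0.09 ± 0.23. For Esrra, a regulator of mitochondrial genes, the difference was -0.06 ± 0.18, for Esrrb 0.12 ± 0.68, and for Nr5a1 (SF-1), the steroidogenic factor, 0.08 ± 0.19.

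The NR4A receptors are immediate early genes. Nr4a1 (NUR77) differed by -0.11 ± 0.23. Nr4a2 (NURR1) read 0.04 and 1.95 with DMSO and 0.14 and 2.10 with GW3965, a difference of 0.12 ± 0.91 with an interval from -2.25 to 2.50. Each group thus held one low and one high array. Among 20 other immediate early genes, 18 were measured, 0 passed the test, and 2 (11.1%, all genes 9.41%) had both treated arrays above both controls: Fosb, at 0.44 ± 0.22, and Jund, at 0.22 ± 0.19. Klf2 and Zfp36, next by unadjusted p, differed by -0.41 ± 0.32 and 0.15 ± 0.20.

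**Figure D2:**
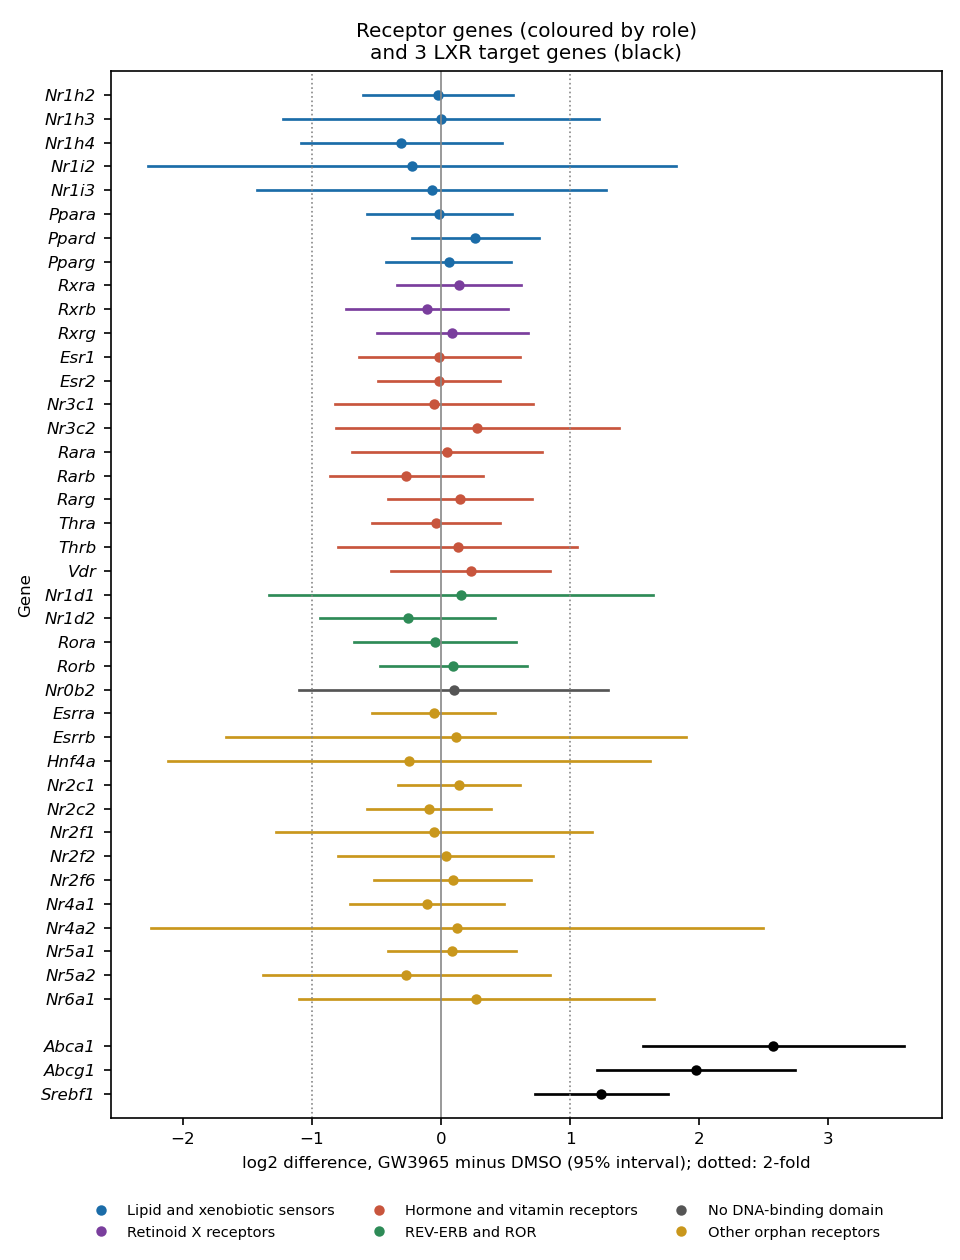
Difference between GW3965 and DMSO on the log2 scale for the 39 measured receptors, coloured by role, and for Abca1, Abcg1 and Srebf1 in black. Points are limma estimates, bars are 95% intervals, and dotted lines mark 2-fold. Every receptor's bar crosses 0, and 14 of the 39 reach past a dotted line, with the widest for Nr4a2, Nr1i2 and Hnf4a.

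The intervals come from a fit that does not pair the replicate letters, so the gap between replicates a and b adds to their width. In that fit they say how large a difference these 4 arrays could miss. SEs ran from 0.18 to 0.91 with a median of 0.24, beside 0.23 over all genes. For 25 of the 39 receptors (64.1%) the 95% interval lay within 2-fold in both directions, against 77.7% of all genes. For the other 14 a 2-fold difference lay inside the interval, and these included Nr1h3, Nr1h4, Nr1i2, Nr1i3, Hnf4a and Nr5a2. A p above the threshold does not show that levels were equal.

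Among the 18 receptors with at least 2 probes kept, the probes gave 1 sign for 13 and mixed signs for 5, namely Nr2c1, Nr4a2, Rara, Rxra and Rxrg. The other probe gave -0.13 ± 0.83 for Nr4a2 and -0.05 ± 0.19 for Rara. Where signs were shared, sizes still varied: other probes gave -0.31 ± 0.90 for Nr1i3, 0.24 ± 0.46 for Thrb, and -0.07 ± 0.21 and -0.16 ± 0.22 for Rarb. Among the 5 receptors with mixed signs, the differences of the Rxrg probes stood furthest apart, and both are shown for that reason. They lie on the same chromosome within a short distance.
Rxrg probe, chr1:169569496-169569555: ctggcctcccttcctgtccccaaaatgtga
Rxrg other probe, chr1:169569624-169569683: aggtctttccggcagttcttgggaagagtg
The representative probe read 3.78 and 3.40 with DMSO and 3.74 and 3.61 with GW3965. On the other probe the values were -2.57 and -3.45 with DMSO and -2.82 and -4.02 with GW3965, a difference of -0.41 ± 0.51. Neither probe separated the groups. The 2 probes stood far apart in level on every array, and which of them measures Rxrg alone was not tested.

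The letter of the replicate separated the arrays of most receptors. The gap between a and b had the same sign in both groups for 34 of the 39 receptors (87.2%), against 75.1% of all genes. It exceeded the difference between the groups for 33 of them (84.6%), against 75.8% of all genes. Both a arrays lay above both b arrays for 15 receptors (38.5%, all genes 28.0%), both b arrays above both a arrays for 16 (41.0%, all genes 38.4%), and 8 did neither. These are descriptions without a test, and the labels do not say that a and b mark a shared animal, culture or day.

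Receptors of several roles lay on each side. Of the 8 measured lipid and xenobiotic sensors, 7 were higher on both a arrays, all but Ppard, and so were Hnf4a, Nr5a2, Thrb, Nr3c2, Rarb, Rora, Rxrg and Nr2f6. Higher on both b arrays were Nr4a2, Esrrb, Nr1d1, Nr6a1, Nr2f1, Nr2f2, Rara, Nr3c1, Nr1d2, Rxrb, Nr4a1, Rarg, Rorb, Vdr, Esr2 and Nr0b2. The gap was widest for Nr4a2, where a minus b was -1.90 with DMSO and -1.96 with GW3965. In the other direction Nr1i2 gave 1.65 in both groups and Hnf4a gave 1.29 and 1.68.

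Markers of the cell types a liver preparation can hold moved with the letters too. Of 20 hepatocyte markers 19 were measured (no probe carried the name Tf), 18 were higher on both a arrays and 0 on both b arrays. Their summed level, in multiples of the array's 75th percentile, was 3588 and 2430 with DMSO and 3791 and 2084 with GW3965. The hepatocyte label of the cells thus had its markers on all arrays.

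Of 13 endothelial markers, 1 was higher on both a arrays and 11 on both b arrays, with sums of 73.1 and 112 with DMSO and 80.0 and 114 with GW3965. Macrophage and leukocyte markers, 18 of 19 measured with Timd4 not kept, went the other way, with 15 higher on both a arrays and 1 on both b arrays and sums of 134, 87.5, 148 and 94.7 in the order DMSO a, DMSO b, GW3965 a, GW3965 b. Stellate cell and fibroblast markers, 13 of 14 measured without Lrat, were mixed, with 5 and 7 and sums of 211, 268, 239 and 261 in that order. Cholangiocyte markers, 8 of 10 measured, split 3 and 3, with sums of 62.9, 76.4, 57.7 and 64.2. A sum mostly follows the brightest markers of its list. The cholangiocyte sum is mostly Spp1, whose log2 levels were 5.88, 6.09, 5.75 and 5.77. Among stellate and fibroblast markers the brightest by mean were Vim, higher on both b arrays, and Dcn, higher on both a arrays. The part of these markers in the receptors' gaps was not tested. Between DMSO and GW3965 no marker passed the test, and the median differences of these lists lay between -0.01 for hepatocyte and 0.11 for endothelial and for stellate markers.

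**Figure D3:**
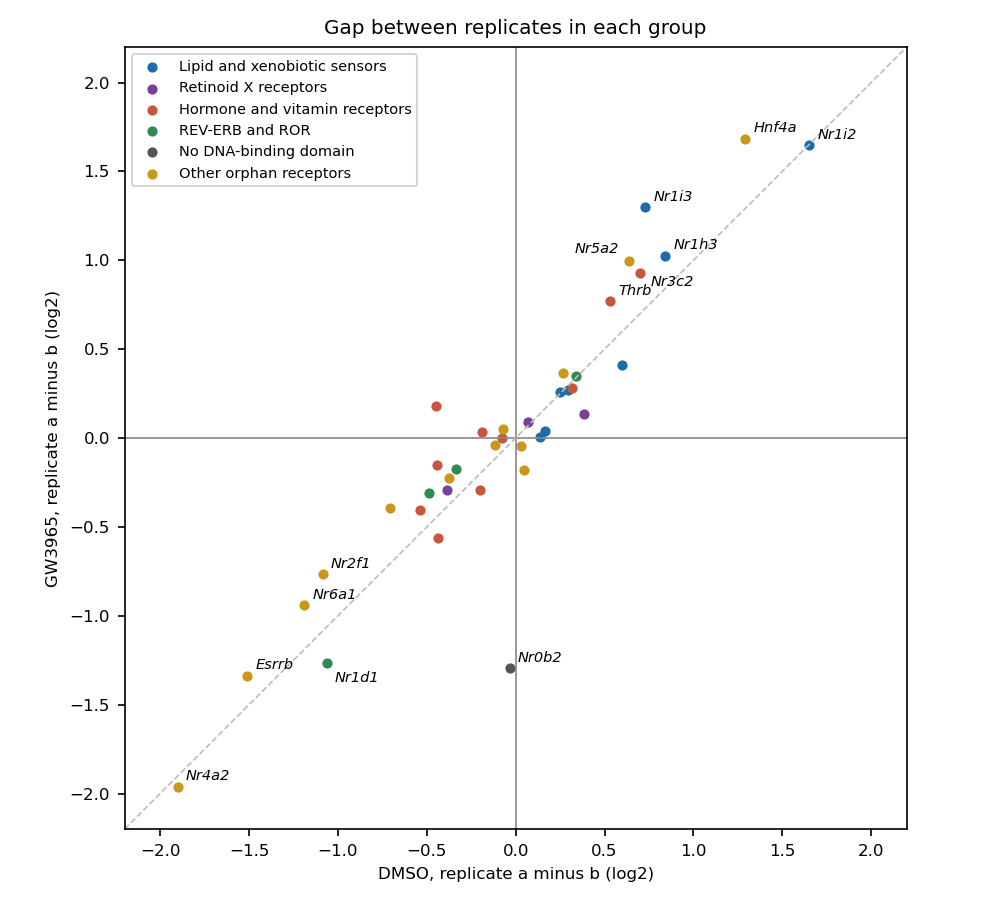
Gap between replicate a and replicate b for each measured receptor, on the log2 scale, with DMSO on the horizontal axis and GW3965 on the vertical axis, coloured by role. The dashed line marks equal gaps. Of the 39 receptors, 34 lie in the quadrants where both gaps have the same sign, with Nr1i2 and Hnf4a at one end and Nr4a2 and Esrrb at the other. Nr0b2, with gaps of -0.03 and -1.29, lies away from the line.

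Target genes of the receptors were taken as lists without the receptors themselves. Of 20 LXR targets, 18 were measured, 0 passed the test, 8 had an unadjusted p under 0.05, and the median difference was 0.61 against -0.01 over all genes. Both treated arrays were above both controls for 9 of the 18 (all genes 9.41%) and below for 2 (11.1%, all genes 6.55%). Beside Abca1, Abcg1 and Srebf1, Lpcat3, a phospholipid-remodelling enzyme, differed by 1.05 ± 0.21.

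Targets of the other receptors had median differences between -0.16 and -0.01, with 0 passing the test and 0 at an unadjusted p under 0.05 in each list. In any of these lists at most 1 gene had groups that did not overlap, against 16.0% of all genes. For PPARα, 17 of 18 were measured, with a median of -0.03. Pdk4, a kinase that restrains glucose oxidation, was the 1 gene with separated groups, at 0.27 ± 0.18. Cpt1a, Cpt2 and Plin2 differed by -0.22 ± 0.23, -0.19 ± 0.21 and 0.16 ± 0.27. For FXR, 8 of 10 were measured, with a median of -0.16. Its members Baat, Slc10a1, Cyp7b1 and Slc27a5, which make or take up bile acids, differed by -0.50 ± 0.39, -0.20 ± 0.26, -0.17 ± 0.25 and -0.15 ± 0.22, all in overlapping groups. For PXR and CAR, 15 of 18 were measured, with a median of -0.01. The groups separated for Abcc2, an export pump, at 0.31 ± 0.19, while Cyp3a25, Alas1 and Cyp3a11 differed by -0.17 ± 0.30, -0.10 ± 0.22 and -0.16 ± 0.41.

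Glucocorticoid receptor targets were all measured, 18 of 18, with a median of -0.02 and overlapping groups throughout. Zbtb16, Sgk1, Igfbp1 and Mt2 differed by -0.17 ± 0.20, -0.23 ± 0.28, 0.37 ± 0.66 and 0.23 ± 0.42. For the thyroid hormone receptors 7 of 9 were measured, with a median of -0.03. Thrsp, a lipogenic gene, differed by 0.42 ± 0.48, and Bcl3, Me1 and Dio1 by -0.14 ± 0.27, 0.12 ± 0.26 and -0.09 ± 0.30. For the retinoic acid receptors 7 of 8 were measured, with a median of -0.11. Dhrs3, a retinal reductase, had both treated arrays below both controls at -0.12 ± 0.18, and Cyp26a1, which degrades retinoic acid, read 2.60 and 1.02 with DMSO and 2.12 and 0.45 with GW3965. Tgm2, a transglutaminase, differed by 0.08 ± 0.19. For Hnf4a, 17 of 18 were measured, with a median of -0.08. Of these, 14 were higher on both a arrays (all genes 28.0%) and 2 on both b arrays (all genes 38.4%). Hnf4a itself was higher on both a arrays, and some of its targets also stand among the hepatocyte markers. Whether targets follow their receptor across the letters was not tested. Mttp, which loads lipid onto apolipoprotein B, had both treated arrays below at -0.22 ± 0.21. Otc, F9 and F10 differed by -0.29 ± 0.31, -0.16 ± 0.25 and -0.19 ± 0.35.

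Transcripts of the coregulators that receptors recruit were measured for every listed gene. All 17 coactivator genes were measured, 0 passed the test, and the median difference was 0.01, with 2 above (11.8%, all genes 9.41%) and 3 below (17.6%, all genes 6.55%). Cited2, a coactivator that binds CBP and p300, read 4.64 and 4.70 with DMSO and 5.01 and 5.00 with GW3965, a difference of 0.34 ± 0.18. Its replicates were closer to each other than its groups were. Ncoa4, Ncoa2 and Crebbp differed by -0.17 ± 0.18, -0.14 ± 0.19 and 0.15 ± 0.22. Of the corepressors 16 of 16 were measured, 0 passed the test, and the median was 0.00. Ncor1, the corepressor of unliganded receptors, was the 1 gene with separated groups (6.25%, all genes 16.0%) and read 1.09 and 1.43 with DMSO and 1.47 and 1.61 with GW3965, a difference of 0.28 ± 0.22. Gps2, Hdac1 and Tbl1x, which sit in the same complexes as Ncor1 or in related ones, differed by 0.28 ± 0.34, -0.17 ± 0.21 and 0.19 ± 0.27.

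**Figure D4:**
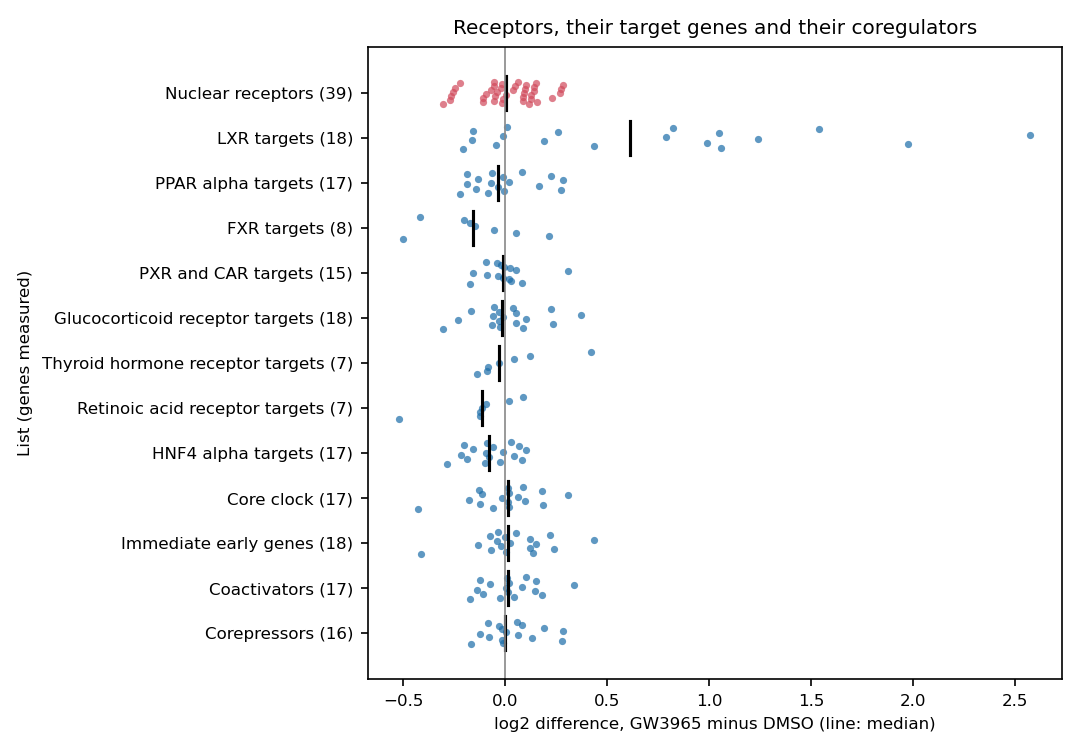
Difference between GW3965 and DMSO on the log2 scale for each measured gene of the receptor, coregulator, target, clock and early gene lists, with 1 point per gene and the median of each list marked. The LXR targets reach 2.58 with a median of 0.61, while the receptors lie between -0.31 and 0.28.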

How the data were processed

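The deposited values are the background-corrected signal intensity of each spot on 4 single-colour arrays of Agilent design 028005, on a linear scale, from Feature Extraction 10.7.3.1 per the file headers and 11.5.1.11 per the submitters' processing notes. The value table the authors deposited holds that intensity for all 62976 features of an array, and 0 is the largest difference found. Arrays were not scaled to each other by the authors, and all were read in 1 scan of 1 slide. For the treated samples, "LXR against GW3965" in the labels was read as treatment with GW3965.

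From the deposited intensity, log2 values were averaged over the spots of a probe, less outlier spots, and each array's 75th percentile was subtracted. Of 55681 probes, the 35479 kept were well above background on each array of 1 group or of both. The probe with the highest mean stood for a gene. Names came from RefSeq accessions for 26762 probes and from the files for 28919. Groups were compared over 24637 genes with limma 3.58.1 in R 4.3.3 (with version 1.17.8 of data.table), without a block, two-sided, with Benjamini-Hochberg adjustment and a threshold of 0.05. Residual degrees of freedom were 2 and those of the prior 2.72. SEs and intervals are limma's moderated ones, which combine a gene's own spread with that of all genes. The script was tested on simulated data. Precision is limited by the number of arrays. Figures were drawn with matplotlib 3.10.9.

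The receptors and the 17 lists (265 entries, 249 genes, 233 measured) were chosen with earlier results of these data known. Some genes stand in more than 1 list. Values on every array are given for both LXRs, Rxra, Rxrb, receptors whose groups did not overlap and the 5 largest differences in each direction, and up to 4 genes of smallest unadjusted p are named in each target, clock, early gene and coregulator list, less a result that is not reported here. Other receptors are given by their difference, and array values printed beyond this rule were chosen after they were seen. Alternatives were the scaling, the background correction, the filter, the choice of probe, the variance model, the threshold, the replicate block and each array left out.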

Additional observations from a re-analysis of the deposited data

How the results depend on the processing

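The count of receptors called was 0 under every alternative run, with 0.948 as the lowest adjusted p of any receptor, and so was the count of list genes. Without a filter on dim probes, 7 of 47 receptors (14.9%, all genes 19.2%) had groups that did not overlap, where 4 of the 39 measured (10.3%, all genes 16.0%) did. Leaving out 1 array gave 14 to 27 receptors without overlap (35.9% to 69.2%, all genes 56.4% to 61.8%), which 1 array against 2 makes easier, and 0 to 1 of all genes called. The 1 came without DMSO replicate b. On leaving out 1 array, the difference changed sign for 29 of 39 receptors and kept it for 10: Esrra, Nr1d2, Nr1h4, Nr2c1, Nr2c2, Ppard, Rarb, Rarg, Rxra and Vdr. Without 1 array the letters a and b are unequal between the groups, so the gap between them enters the difference. A wide gap then changes the sign by construction. Over the other alternatives run, 32 kept their sign. With the letter as a replicate block, 15 of all genes were called and 0 receptors. Only 2 pairs exist and the labels do not say that they pair. The correlation of the a-minus-b gaps of both groups was 0.72 across 24637 genes, which are not independent.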

Other observations

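The genes that receptors act with or on were also divided by replicate letter. Of 17 measured PPARα targets, 15 were higher on both a arrays and 1 on both b arrays. Ppara itself was higher on both a arrays. So were 18 of 19 measured hepatocyte markers, and Fabp1 stands in both lists. Whether targets follow their receptor was not tested. Of 18 glucocorticoid receptor targets, 11 were higher on both a arrays and 5 on both b arrays, while Nr3c1 was higher on both b arrays. Of 7 measured retinoic acid receptor targets, 3 were higher on both a arrays and 3 on both b arrays. Rarb was higher on both a arrays, and Rara and Rarg on both b arrays. Of 16 corepressor genes, 3 were higher on both a arrays and 11 on both b arrays. Of 17 coactivator genes, 5 and 3 did so. Over all genes the shares were 28.0% and 38.4%, and these lists were picked for mention after their values were seen.

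Between DMSO and GW3965, 4 of 52 measured markers of other cell types (7.69%, all genes 16.0%) and 1 of 19 hepatocyte markers had groups that did not overlap, and limma called none of them. The share is below that of all genes, and the values are given as a description. Krt23, a keratin of bile duct cells, read -2.96 and -2.65 with DMSO and -2.21 and -2.41 with GW3965, a difference of 0.49 ± 0.22 (SE, n = 2 arrays in each group). Pdgfrb, a receptor of stellate cells, differed by 0.39 ± 0.18, and Tek, an endothelial receptor, by 0.25 ± 0.21. Spp1, which is also made by bile duct cells, differed by -0.23 ± 0.19. Among hepatocyte markers Cyp1a2 differed by 0.30 ± 0.21.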
